A study of Mus musculus with 14 samples.

Results

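The genes of the Snail, Twist and Zeb transcription factors were examined together with 3 genes on which these factors are known to act. The 7 factor genes were Snai1, Snai2, Snai3, Twist1, Twist2, Zeb1 and Zeb2, and the 3 others were Cdh1, Cdh2 and Vim. The 10 genes were chosen by name out of 21938 protein-coding genes. For each gene, every peak of trimethylated lysine 4 of histone H3 (H3K4me3) with any base within 1 kb of an annotated transcription start site (TSS) was taken, as was every putative enhancer in the gene or within 100 kb of either end. This gave 16 of 25357 peaks and 85 of 32965 enhancers.

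Immortalised mouse embryo fibroblasts (iMEFs) were examined by chromatin immunoprecipitation and sequencing (ChIP-seq) for H3K4me3. They had floxed Ash2l alleles and Cre-ER, a recombinase that can be switched on. In the cells of all groups, untreated controls included, exon 4 of the endogenous Ash2l had been deleted, and a lentiviral construct supplied human ASH2L fused to FKBP12 with the F36V exchange as the source of ASH2L. The H3K4me3 libraries formed 6 groups of 2 replicates, which were untreated or had received dTAG for 30 min, 2 h, 4 h, 8 h and 16 h, 1 time per group. A pair of input libraries came from untreated cells and from the 16 h time point. The compound dTAG brings an E3 ligase to the FKBP moiety, after which the fusion protein is degraded. The cells were NG3, a clonal line, so that all groups stem from a single clone.

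Snail and Zeb proteins are zinc finger factors that bind E-boxes and mostly repress, and Twist proteins are basic helix-loop-helix factors that bind E-boxes together with E proteins. Together they are known as the factors of the epithelial-mesenchymal transition (EMT), in which cells lose E-cadherin (Cdh1), gain N-cadherin (Cdh2) and build a cytoskeleton of vimentin (Vim). H3K4me3 lies at promoters that are active or open to activity, and it is placed by KMT2 complexes of which ASH2L is a core subunit.

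The peak list used here covers all libraries together and gives positions only, and lists of single time points were not used here. A peak therefore says that H3K4me3 was found in at least some of the libraries, and the list gives no value per time point, no replicate error and no depth for it. Mark in some cells of a culture cannot be told from mark in all of them. Widths are likewise those of regions in the joint list, and the width in any single library, untreated or treated, is not known. The numbers below compare positions and widths between genes, and no test was made of them, since genes are not replicates.

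All 10 genes had a peak, where 59.1% of all protein-coding genes had one. In most of them the widest peak was wide. The widest peak of a gene reached at least 2 kb in 8 of the 10 genes, against 9.46% of all protein-coding genes, those without a peak included. This share stands for 2075 genes, while 12966 genes had a peak. The 10 genes and the 2 kb limit were chosen with earlier results of these data known. The median of the widest peaks was 2479.5 bp over the 10 genes and 2361 bp over the 7 factor genes. Over all 12966 genes with a peak it was 1255 bp, with quartiles at 908 and 1710 bp and a maximum of 7417 bp. Snai3 and Cdh1 stood on the other side of this median. The order from wide to narrow was Snai1, Cdh2, Twist2, Twist1, Vim, Snai2, Zeb2, Zeb1, Snai3 and Cdh1. Without replicates, neighbours in this order, such as Snai2 and Zeb2 at 2361 and 2306 bp, cannot be told apart. The genes also differ in how many TSSs are annotated, from 1 in Snai1, Snai2, Snai3 and Twist1 to 11 in Zeb1 and 29 in Zeb2, and more TSSs give more chances for a peak.

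**Figure D1:**
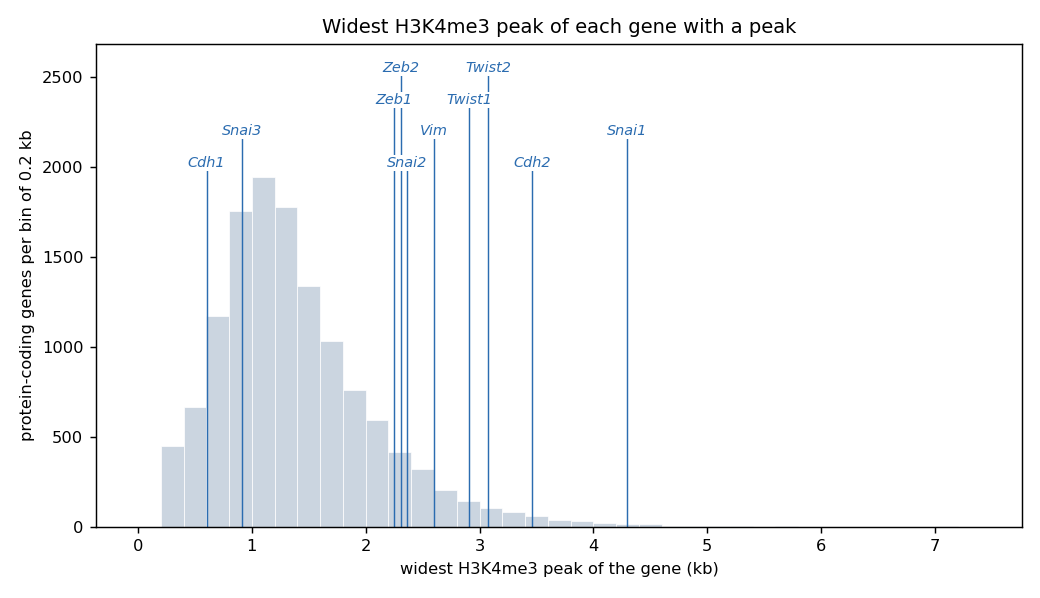
Number of protein-coding genes (y axis, per bin of 0.2 kb) by the width of the widest H3K4me3 peak of the gene (x axis, kb), with the 10 genes as vertical lines whose height only serves to place the names. Cdh1 at 602 bp and Snai3 at 914 bp lie left of the median of 1255 bp, and the other 8 genes lie at 2248 bp or more, in the right tail.

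Most of the 10 promoters were rich in CpG, the dinucleotide at which many H3K4me3 promoters are dense. Within 500 bp of the reference TSS, 8 of the 10 genes were over 50% in GC and over 0.6 in the CpG ratio, the number of CpGs found divided by the number that the base composition predicts, against 46.0% of all protein-coding genes. The 2 others were Snai3, with a ratio of 0.57, and Vim, with a ratio of 0.52. Within 250 bp of the TSS the ratio of Snai3 was 0.81, over the limit, and that of Vim was 0.45. CpG content went with the presence of a peak over all genes, since 93.5% of genes with such a promoter and 29.8% of the others had one. Among the genes with a peak, the median of the widest peaks was 1335 bp with and 1021 bp without such a promoter. Within their own class, 99.6% of genes were narrower than Snai1 and 4.9% were narrower than Cdh1. Cdh1 was thus CpG-rich, with a ratio of 0.72, and narrow, while Vim was not CpG-rich and wide, with 95.8% of its class narrower.

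Short motifs were searched on both strands of the sequences under these peaks and enhancers, and in promoters. They were CAGGTG (reverse complement CACCTG), the E-box bound by Snail and Zeb proteins, and CATATG and CAGATG (reverse complement CATCTG), E-boxes bound by Twist. TGANTCA was searched too, a loose form of the site of the AP-1 factors that takes any base in the middle. Matches of these E-boxes cannot overlap each other, while a match of TGANTCA can share its end bases with an E-box. CAGGTG stood in 20.2% of all RefSeq promoters of 300 bases, 45.7% of all peaks and 26.3% of all enhancers. TGANTCA stood in 7.8%, 14.4% and 30.2% of them, CAGATG in 17.2%, 35.1% and 36.1%, and CATATG in 3.9%, 6.7% and 8.8%. Counts in a peak are set beside those in all peaks within 10% of its width, the peak itself included, and as many means that number or more. A match gives letters in a sequence and does not show binding.

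Snai1 encodes Snail, a repressor of E-cadherin whose protein is short-lived. The gene (chr2:167538195-167542814, plus strand, build GRCm38.p6) had 1 peak, at chr2:167538176-167542468. With 4293 bp it was the widest of the 10 genes as listed, though not when peaks less than 1 kb apart were joined (4538 bp at Vim), and took rank 53 among all 12966 genes with a peak, where 99.6% were narrower. In the order of widths it lay between Tgfb3 (4327 bp) and Kmt2d (4326 bp) above and Hcfc1r1 and Thoc6 (both 4292 bp) below, the last 2 sharing a peak. The peak of Snai1 lay almost wholly on the transcribed side. It ran from 19 bp upstream to 4273 bp downstream of the TSS and covered 92.5% of the gene of 4620 bp. Of its bases, 18.4% were coding sequence, 11.3% UTR and 69.9% intron. Over 10000 genes whose peak held the reference TSS, the medians were 311 bp upstream and 928 bp downstream, and 946 of them reached no farther upstream than Snai1. The centre of this peak lay more than 1 kb from the TSS, so that a rule on peak centres would count no peak at Snai1.

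The promoter of Snai1 (chr2:167537945-167538244, plus strand, from RefSeq) is shown because the peak began within it and it held an E-box of the kind that Snail and Zeb bind, in capitals, starting at position -126 from the TSS. The E-box lay outside the peak, which began 19 bp upstream of the TSS. The last 50 bases are transcribed.
Snai1 promoter: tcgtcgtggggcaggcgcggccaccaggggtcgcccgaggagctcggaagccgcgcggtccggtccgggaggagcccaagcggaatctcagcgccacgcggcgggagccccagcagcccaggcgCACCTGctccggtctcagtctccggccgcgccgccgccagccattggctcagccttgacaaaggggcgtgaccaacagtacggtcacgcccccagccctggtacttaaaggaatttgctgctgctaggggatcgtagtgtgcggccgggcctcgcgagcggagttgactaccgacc

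The widest peak of Snai1 held 11 matches of CAGGTG. The 69 peaks of the whole list within 10% of its width, itself included, had a median of 3, and 1.4% of them, which is this 1 peak, had as many. It held 4 matches of CAGATG and 0 of TGANTCA. Around Snai1 there were 9 enhancers, and all 9 were outside the gene. The nearest of them lay 8.9 kb downstream of the TSS, beyond the end of the gene, and for 5 of the 9 Snai1 was the nearest coding gene. The 2 enhancers upstream of Snai1 lay nearer to Rnf114 and the 2 farthest downstream nearer to Ube2v1.

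**Figure D2:**
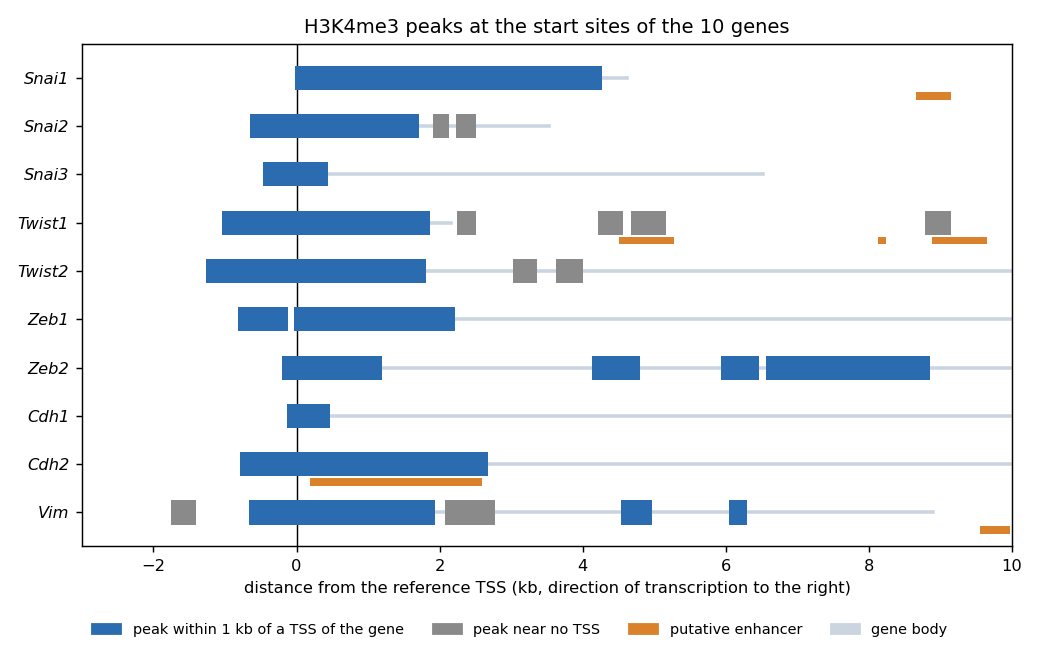
H3K4me3 peaks (bars) along the first 10 kb of each of the 10 genes, by distance from the reference TSS in kb, with transcription to the right. The peak of Snai1 starts at the TSS and fills most of the gene, Zeb2 has 4 separate peaks with the widest starting 6555 bp into the gene, and peaks that lie near no annotated TSS follow at Snai2, Twist1, Twist2 and Vim.

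Snai2 encodes Slug, the Snail family member known from neural crest and mesenchyme. The gene (chr16:14705852-14709385, plus strand) had 1 peak of 2361 bp, at chr16:14705200-14707560, which ran from 652 bp upstream to 1708 bp downstream of the TSS. This was wider than 91.3% of all genes with a peak. A pair of small peaks of 224 and 286 bp followed within the gene, centred 2016 and 2370 bp from the TSS and near no annotated TSS. Snai2 was the one gene of the 10 with no enhancer in it or within 100 kb, as were 24.5% of all protein-coding genes. The nearest enhancer centre lay 113.4 kb downstream, and Efcab1 was its nearest coding gene.

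Snai3 encodes the third member of the family. The gene (chr8:122454208-122460733, minus strand) had 1 peak of 914 bp, at chr8:122460288-122461201, and 25.3% of all genes with a peak were narrower. Beside Snai1 and Snai2 it was narrow, and it ran from 468 bp upstream to 445 bp downstream of the TSS. The peak held 5 matches of CAGGTG, where the 2187 peaks within 10% of its width had a median of 1 and 0.2% had as many. Of the 6 enhancers within 100 kb, 0 had Snai3 as the nearest coding gene. The nearest was 63.4 kb away and overlapped Piezo1, which encodes an ion channel and whose TSS lay 27217 bp from the enhancer centre. As listed, the Snail family thus held the widest peak of the 10 genes and the second narrowest.

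Twist1 encodes a basic helix-loop-helix factor of the mesoderm and cranial mesenchyme. The gene (chr12:33957671-33959829, plus strand) had 1 peak of 2909 bp, at chr12:33956626-33959534, wider than 96.5% of all genes with a peak. The peak ran from 1045 bp upstream to 1863 bp downstream of the TSS and covered 86.3% of the short gene. It was rich in CpG, with 207 of them, and it held 0 matches of CAGGTG, whereas 86.2% of the 399 peaks within 10% of its width held one. A row of 4 small peaks near no annotated TSS followed downstream of the gene. They were 271 to 480 bp wide and centred between 2373 and 8968 bp from the TSS. Of these, 3 overlapped putative enhancers, which lay 4.9 and 9.3 kb from the TSS.

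The promoter of Twist1 (chr12:33957421-33957720, plus strand, from RefSeq) is shown as an example of a marked promoter without any of the motifs searched. The enhancer stretch is that of the region 4.9 kb downstream (chr12:33962412-33962711, plus strand), which 2 of the small peaks overlapped, with its E-box in capitals.
Twist1 promoter: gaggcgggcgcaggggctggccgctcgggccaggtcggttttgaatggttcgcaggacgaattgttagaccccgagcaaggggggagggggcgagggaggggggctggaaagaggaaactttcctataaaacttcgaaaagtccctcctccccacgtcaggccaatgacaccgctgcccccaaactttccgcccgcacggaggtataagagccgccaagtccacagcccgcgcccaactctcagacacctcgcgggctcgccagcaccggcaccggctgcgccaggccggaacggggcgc
Twist1 enhancer: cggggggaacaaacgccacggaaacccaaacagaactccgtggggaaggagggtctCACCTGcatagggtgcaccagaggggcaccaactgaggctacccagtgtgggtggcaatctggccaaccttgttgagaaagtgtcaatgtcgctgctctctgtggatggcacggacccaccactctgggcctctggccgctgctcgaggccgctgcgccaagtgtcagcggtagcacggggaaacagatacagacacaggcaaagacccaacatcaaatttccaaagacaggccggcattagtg

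Around Twist1 there were 5 enhancers, all downstream of the gene, and Twist1 was the nearest coding gene for all 5. The nearest 3 lay within 10 kb of the TSS and the other 2 lay 83.4 and 91.3 kb away. The last of these stood within Hdac9, a neighbouring gene for a histone deacetylase.

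Twist2 encodes the close relative of Twist1, also called Dermo1 for its expression in dermis. The gene (chr1:91801461-91848028, plus strand) had 1 peak of 3079 bp, at chr1:91800192-91803270, wider than 97.4% of all genes with a peak. It reached 1269 bp upstream, farther than in any other of the 10 genes, and a TSS of the noncoding gene Gm29100 lay within it. The peaks of both Twist genes were thus near 3 kb wide, and no enhancer overlapped either. Another pair of small peaks, 335 and 368 bp wide, lay 3196 and 3816 bp into Twist2. Twist2 had 2 enhancers, both in its intron, 15.2 and 22.0 kb from the TSS.

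The promoter of Twist2 (chr1:91801211-91801510, plus strand, from RefSeq) is shown beside that of Twist1, and it too held none of the motifs. The enhancer stretch, the middle of the region 15.2 kb into the gene (chr1:91816534-91816833, plus strand), has a Twist E-box and 2 matches of TGANTCA in capitals. The middle bases of these 2 matches are T and A.
Twist2 promoter: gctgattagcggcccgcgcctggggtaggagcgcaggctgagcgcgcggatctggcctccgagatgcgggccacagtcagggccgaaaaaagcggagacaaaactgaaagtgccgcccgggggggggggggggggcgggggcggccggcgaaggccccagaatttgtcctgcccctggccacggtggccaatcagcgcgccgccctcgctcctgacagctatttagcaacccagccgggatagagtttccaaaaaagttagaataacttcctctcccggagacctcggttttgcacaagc
Twist2 enhancer: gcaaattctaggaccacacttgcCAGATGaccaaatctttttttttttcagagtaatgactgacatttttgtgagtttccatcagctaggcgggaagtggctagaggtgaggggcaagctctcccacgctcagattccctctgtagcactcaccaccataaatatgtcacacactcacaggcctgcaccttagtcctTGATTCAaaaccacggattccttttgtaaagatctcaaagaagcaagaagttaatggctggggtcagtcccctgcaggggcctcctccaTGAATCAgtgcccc

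Zeb1 encodes a repressor with zinc fingers at both ends and a homeodomain between them. The gene (chr18:5591860-5775467, plus strand) had 2 peaks, separated by 77 bp. The wider one, of 2248 bp at chr18:5591828-5594075, ran from 36 bp upstream to 2211 bp downstream of the TSS and was wider than 89.5% of all genes with a peak. It also held a TSS of the noncoding gene Gm10125. The other peak, of 707 bp, lay wholly upstream and held a TSS of Gm2238, and both of these genes lie on the strand opposite to Zeb1. As listed, the main peak of Zeb1 ended close to the TSS on the upstream side, as did that of Snai1. A reach this short was matched or undercut by 17.87% of genes with a peak at the reference TSS. At Zeb1 it depended on the gap of 77 bp, beyond which the other peak carried H3K4me3 farther upstream. When peaks less than 1 kb apart were joined, the widest region at Zeb1 grew to 3032 bp, while Snai1 stayed at 4293 bp. The promoter of Zeb1 had a CpG ratio of 0.95.

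Zeb1 had 22 enhancers, the most of the 10 genes, and 110 protein-coding genes had more. Of these, 11 lay in the gene of 183608 bp and 11 outside it, and Zeb1 was the nearest coding gene for all 22. Long genes collect more enhancers by this rule, and per 100 kb of the gene with its flanks Zeb1 had 5.74, above 98.5% of all genes. Those in the gene lay between 28.2 and 172.6 kb from the TSS. The 7 beyond its end lay between 210.8 and 266.7 kb from the TSS, and the one at 228.1 kb, 2031 bp long, held a peak of H3K4me3 of 432 bp near no annotated TSS. CAGGTG stood in 11 of the 22 enhancers.

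Zeb2 encodes the sister factor of Zeb1, also called Sip1 for its binding to Smad proteins. The gene (chr2:44983632-45117395, minus strand) had 4 peaks, more than any other of the 10, of 1400, 684, 519 and 2306 bp in the order of transcription. The peak at the reference TSS, chr2:45116203-45117602, was 1400 bp wide. The widest lay inside the gene, from 6555 to 8860 bp downstream of that TSS, and 64.2% of it was annotated as exons of noncoding transcripts. It held 10 TSSs of Zeb2 and TSSs of Zeb2os, an RNA gene on the other strand. Peaks have no strand, so mark at Zeb2 and mark at Zeb2os cannot be told apart there. With the reference TSS alone, the width of Zeb2 would be 1400 bp in place of 2306 bp, close to the median of all genes.

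A pair of promoters of Zeb2 is shown, from RefSeq on the minus strand, since the widest peak lay at the inner one (chr2:45110228-45110527) and not at the outer one (chr2:45117393-45117692). The RefSeq TSS of the outer promoter, at position 45117442, lies upstream of the reference TSS at 45117395, and the stretch shown holds both. The inner one held 2 AP-1 matches in capitals, starting at positions -189 and -132 from its TSS.
Zeb2 outer promoter: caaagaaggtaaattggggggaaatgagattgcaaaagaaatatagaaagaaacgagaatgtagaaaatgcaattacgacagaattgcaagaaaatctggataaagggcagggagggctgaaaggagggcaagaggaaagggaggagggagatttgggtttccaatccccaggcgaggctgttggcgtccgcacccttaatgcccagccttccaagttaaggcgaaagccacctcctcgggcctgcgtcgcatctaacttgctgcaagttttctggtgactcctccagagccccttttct
Zeb2 promoter in the widest peak: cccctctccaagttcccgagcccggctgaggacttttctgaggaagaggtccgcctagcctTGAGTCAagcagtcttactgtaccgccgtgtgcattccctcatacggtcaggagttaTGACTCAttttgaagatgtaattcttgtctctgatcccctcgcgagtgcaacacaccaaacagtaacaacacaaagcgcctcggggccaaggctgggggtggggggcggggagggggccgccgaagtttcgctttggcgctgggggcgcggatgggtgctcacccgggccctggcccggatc

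The widest peak of Zeb2 held 3 matches of TGANTCA, where the 891 peaks within 10% of its width had a median of 0 and 1.1% had as many. It held 0 of CAGGTG. Zeb2 had 11 enhancers, a count it shared with Cdh1 and with 340 protein-coding genes in all. They lay 6 in introns of the gene, 4 beyond its end and nearer to Gtdc1, and 1 upstream. The nearest lay 46.1 kb from the reference TSS, against a median of 40.8 kb over all genes.

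**Figure D3:**
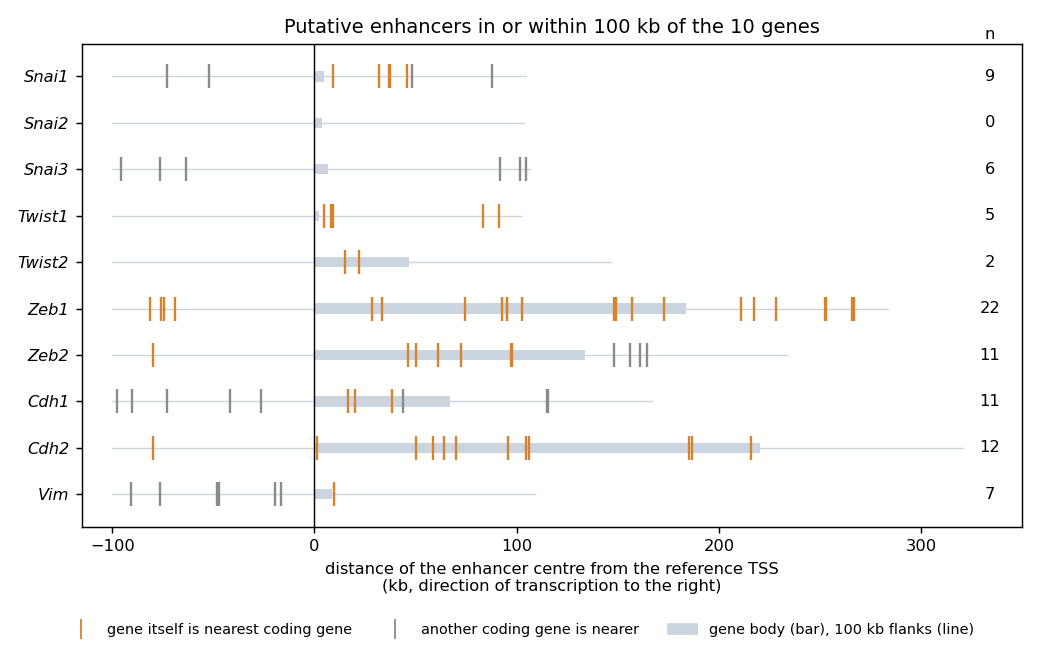
Centres of putative enhancers (ticks) by distance from the reference TSS in kb, with transcription to the right, for each of the 10 genes, and the number n of enhancers. Zeb1 has 22 enhancers on both sides and along the gene, 11 of the 12 of Cdh2 lie in the gene, Snai2 has 0, and all 6 of Snai3 and 6 of the 7 of Vim lie nearer to another coding gene.

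Cdh1 encodes E-cadherin, the adhesion protein of epithelia that Snail and Zeb proteins are known to repress. The gene (chr8:106603351-106670246, plus strand) had 1 peak of 602 bp, at chr8:106603219-106603820, the narrowest of the 10 genes, and 8.6% of all genes with a peak were narrower. The peak ran from 132 bp upstream to 469 bp downstream of the TSS. Its sequence had a GC content of 68.9%. It held 4 matches of CAGGTG, or 6.64 per kb, the highest density among the 10 genes. The 1610 peaks within 10% of its width had a median of 0, and 0.4% had as many. These peaks were alike in width, while base composition was not matched.

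Cdh1 had 11 enhancers, as many as Zeb2, beside the narrowest peak. Of these, 4 lay in introns, 16.4 to 43.9 kb from the TSS, and 7 outside. Cdh1 was the nearest coding gene for 3 of the 11, and 3 upstream ones were nearest to Cdh3, which encodes P-cadherin and had a peak of 1916 bp.

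Cdh2 encodes N-cadherin, the adhesion protein of mesenchymal and neural cells. The gene (chr18:16588877-16809246, minus strand) had 1 peak of 3461 bp, at chr18:16806569-16810029, wider than 98.5% of all genes with a peak. It reached 783 bp upstream and 2677 bp downstream of the TSS. An enhancer of 2414 bp lay within it, centred 1.4 kb from the reference TSS. The 2 cadherin genes thus lay near opposite ends of the order, with 3461 bp at Cdh2 and 602 bp at Cdh1. Cdh2 had 12 enhancers, 11 of them in the gene and all with Cdh2 as the nearest coding gene, up to 215.7 kb from the TSS. Both cadherin genes therefore had a similar number of enhancers, though counted over 266.9 kb at Cdh1 and 420.4 kb at Cdh2. Per 100 kb of the gene with its flanks, Cdh1 had 4.12 enhancers and Cdh2 2.85. The 2 genes also differed in where the enhancers lay and in the width of the peak.

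Vim encodes vimentin, the intermediate filament protein of mesenchymal cells. The gene (chr2:13573927-13582826, plus strand) had 3 peaks within 1 kb of its TSSs, of 2598, 425 and 260 bp. The widest, at chr2:13573291-13575888, ran from 661 bp upstream to 1936 bp downstream of the reference TSS and was wider than 94.2% of all genes with a peak. The other 2 lay in the body of the gene, and no annotated TSS of Vim lay within them. Also, 3 peaks near no TSS lay around the gene, of 222, 352 and 701 bp, centred -14956, -1585 and 2427 bp from the TSS. When peaks less than 1 kb apart were joined, the widest region at Vim grew to 4538 bp.

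The promoter of Vim (chr2:13574061-13574360, plus strand, from RefSeq) is shown since it lay in a wide peak and held none of the motifs searched. Its RefSeq TSS at position 13574311 is not the reference TSS at 13573952, around which the CpG ratio was measured. Outside the stretch shown, the widest peak of Vim held 2 matches of TGANTCA, 2 of CAGGTG and 1 of CAGATG. The 635 peaks within 10% of its width had medians of 0, 2 and 1. For TGANTCA, 9.1% of these peaks had as many.
Vim promoter: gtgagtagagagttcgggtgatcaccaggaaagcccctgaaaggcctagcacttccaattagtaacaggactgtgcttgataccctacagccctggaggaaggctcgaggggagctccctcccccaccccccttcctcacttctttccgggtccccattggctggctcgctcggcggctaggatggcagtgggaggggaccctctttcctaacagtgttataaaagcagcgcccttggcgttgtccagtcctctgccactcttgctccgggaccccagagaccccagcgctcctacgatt

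Vim had 7 enhancers within 100 kb and 0 in the gene. The 6 upstream of it were nearer to Trdmt1 or Cubn, and Vim was the nearest coding gene only for the one 9.8 kb downstream of the TSS.

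Over the 10 genes, 9 had an enhancer in the gene or within 100 kb, against 75.5% of all protein-coding genes. Their median number was 8, against 3 over all genes, and their median density 3.1 per 100 kb, against 1. An enhancer in the gene itself was present at 5 of the 10 (Twist2, Zeb1, Zeb2, Cdh1 and Cdh2), against 25.0% of all genes. These 5 were also the longest of the 10 genes. Of the 85 enhancers, 34 lay in the gene and 51 outside, and for 57 the gene itself was the nearest coding gene. Enhancers of the 10 genes were as long as others, with medians of 404 and 405 bp. A peak of H3K4me3 overlapped 4 of the 85, against 7.52% of all enhancers. These were 2 at Twist1, 1 at Zeb1 and 1 at Cdh2. The authors left out regions at TSSs when they defined enhancers, and 3 of the 85 were still centred within 1 kb of a TSS of the annotation used here, that within the peak of Cdh2 among them.

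The enhancers were described by motif as well. CAGGTG stood in 32 of the 85, or 37.6%, against 26.3% of all enhancers, and 11 of these 32 were at Zeb1. TGANTCA stood in 29, or 34.1%, against 30.2%. CAGATG stood in 31, or 36.5%, against 36.1%, and CATATG in 5, or 5.9%, against 8.8%. For the Twist E-boxes and AP-1, the shares in the 85 enhancers lay within a few percentage points of those in the whole list. One of the 9 enhancers of Snai1, 72.7 kb upstream of its TSS, serves as an example. It overlapped the coding gene Slc9a8, and the nearest coding TSS was that of Rnf114. Its middle (chr2:167465347-167465646, plus strand) has an AP-1 match and a Twist E-box in capitals. The 3 enhancers printed here were chosen for their motif content after it was seen.
Snai1 enhancer: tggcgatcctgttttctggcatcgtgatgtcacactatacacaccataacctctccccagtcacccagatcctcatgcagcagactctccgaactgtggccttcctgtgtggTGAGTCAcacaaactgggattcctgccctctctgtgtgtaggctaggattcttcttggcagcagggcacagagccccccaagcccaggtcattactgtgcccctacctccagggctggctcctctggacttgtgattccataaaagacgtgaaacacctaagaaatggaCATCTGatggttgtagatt

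**Figure D4:**
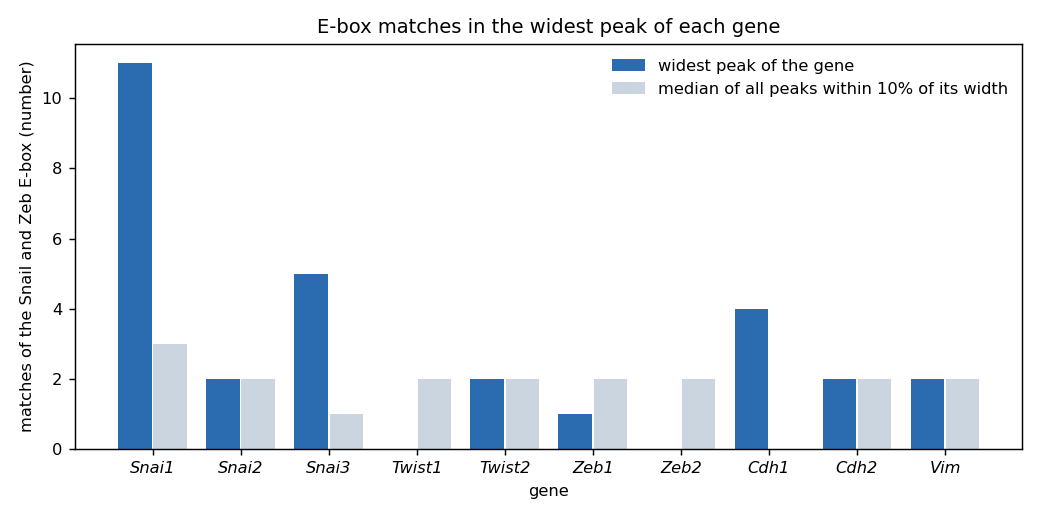
Matches of the E-box of Snail and Zeb on either strand (y axis, number) in the widest H3K4me3 peak of each of the 10 genes (dark bars), beside the median over all peaks within 10% of its width (light bars). Snai1 with 11, Snai3 with 5 and Cdh1 with 4 lie above medians of 3, 1 and 0, and Twist1 and Zeb2 have 0.

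In the widest peaks, CAGGTG was thus most frequent at Snai1, Snai3 and Cdh1. The other 7 genes had 2 matches or fewer, at or below the median of 2 for peaks of their width. These counts depend on the stretch searched. From 1000 bases before to 200 after the reference TSS, Cdh1 had 5 matches, Zeb1 4, Snai1 and Snai3 3 each and Zeb2 2. The remaining genes had 1 or 0 there, and 59.4% of all protein-coding genes held a match in such a window. The matched letters say nothing of whether Snail or Zeb proteins were bound in these cells.

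The partners of the factors were mostly marked as well. Of 17 partners and co-repressors, among them the E proteins, Id proteins and CtBP proteins, 16 had a peak. This was 94.1%, against 59.1% of all protein-coding genes. Their widest peaks ran from Hdac1 and Ezh2 (both 1096 bp) to Ctbp2 (3542 bp). A TSS of Fgfr2, another coding gene, also lay in a peak of Ctbp2. The gene without a peak was Loxl2, a lysyl oxidase known to act on Snail. Of 16 genes of the signals that are known to induce EMT, 15 or 93.8% had a peak, with a median width of 2717 bp. A width of at least 2 kb was reached by 11 of the 16, against 9.46% of all protein-coding genes. Jag1, a Notch ligand, had the widest at 4463 bp, Tgfbr1 the narrowest at 949 bp, and Hgf, the ligand of Met, had none. The Snail, Twist and Zeb genes with their median of 2361 bp were thus not alone among EMT genes in the width of their peaks.

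Among 10 other transcription factor genes of mesenchyme, 8 or 80.0% had a peak, against 59.1% of all protein-coding genes, with a median of 2612.5 bp. Gsc had the narrowest at 745 bp, while Six2 and Tcf21 had none. Of 16 effector genes of mesenchymal cells, 15 or 93.8% had a peak. Their median of 1252 bp lay next to that of all genes and below that of the factors. Mmp14, a membrane-bound matrix metalloprotease, had 4109 bp, Cdh6 had 262 bp, and Mmp3 had no peak.

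Of 25 epithelial effector genes, 13 had a peak, or 52.0%, near the 59.1% of all protein-coding genes, with a median of 1087 bp. The narrowest was Marveld3 at 220 bp. Of 16 epithelial regulators, 7 had a peak, or 43.8%, below the share over all protein-coding genes. The median of these 7 was 1521 bp, above the 1255 bp of all genes with a peak. The widest of these was at Klf4, with 3073 bp, and the narrowest at Ovol1, with 312 bp. Cdh1, with its narrow peak, was thus one of the epithelial genes with a peak rather than without.

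**Figure D5:**
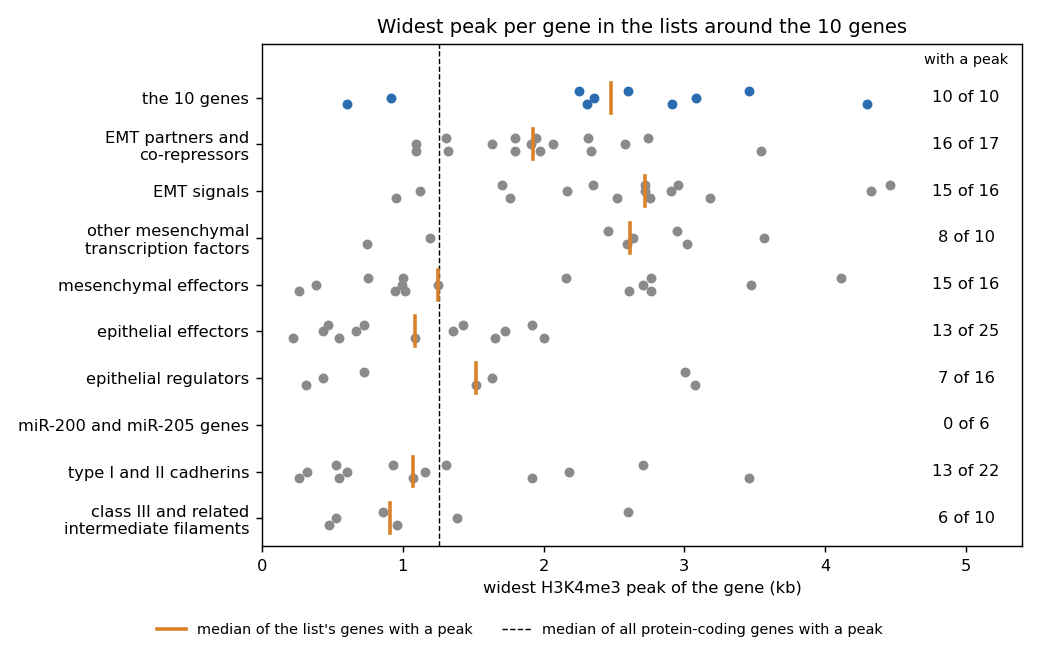
Width in kb of the widest H3K4me3 peak (x axis) of each gene with a peak (points) in the 10 genes and in each list of related genes, with the median of each list (upright bars), the median of 1255 bp over all genes (dashed line), and the number of genes with a peak. The 10 genes, the EMT signals and the other mesenchymal transcription factors have medians above 2 kb, and the epithelial effectors, cadherins and intermediate filaments have the 3 lowest.

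The microRNAs of the miR-200 family and miR-205 are known to act on the transcripts of Zeb1 and Zeb2. None of their 6 genes had a peak within 1 kb of the start of the hairpin, against 11.6% of 2202 microRNA genes. The nearest peaks lay 4.3 kb from Mir141, 4.7 kb from Mir200c, 21.4 to 23.2 kb from the other 3 members of the family and 171.6 kb from Mir205. The start of a hairpin is not the start of the primary transcript, which can lie far upstream. The mature forms (RefSeq, GRCm38.p6) are shown with the seed, bases 2 to 8, in capitals, since the seeds divide the family. Of these, 3 share AAUACUG, 2 share AACACUG, and miR-205 has CCUUCAU.
mmu-miR-200b-3p: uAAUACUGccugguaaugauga
mmu-miR-200c-3p: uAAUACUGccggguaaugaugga
mmu-miR-429-3p: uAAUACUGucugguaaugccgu
mmu-miR-200a-3p: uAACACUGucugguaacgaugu
mmu-miR-141-3p: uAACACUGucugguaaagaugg
mmu-miR-205-5p: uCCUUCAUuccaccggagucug

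Cdh2 and Vim had the widest peaks in the lists of cadherin and intermediate filament genes compared here. The filament list left out keratins and lamins. Of 22 cadherin genes, 13 had a peak, from 262 bp at Cdh6 to 3461 bp at Cdh2. This share of 59.1% was that of all protein-coding genes. Cdh1 with 602 bp lay below the median of 1074 bp of these 13 genes. Of 10 intermediate filament genes, 6 or 60.0% had a peak, and that of Vim was the widest at 2598 bp, with a median of 911 bp. Des, Gfap, Nefl and Nefm had none, and Nes, which encodes nestin, had the narrowest at 474 bp.

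The label of the cells was checked on marker genes. Of 10 fibroblast markers, 8 had a peak, or 80.0% against 59.1% of all protein-coding genes, while Dcn and Lum had none. A peak was present at 2 of 8 epithelial markers (Epcam and Krt19), 2 of 6 endothelial markers (Kdr and Tek), 0 of 6 blood markers and 2 of 6 neuronal markers (Syt1 and Stmn2), all of these shares being below 59.1%. Presence in a union of libraries shows neither how many cells carried the mark nor whether the gene was expressed.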

How the data were processed

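The series held 12 H3K4me3 ChIP-seq libraries and 2 input libraries of iMEFs. Per the methods, the authors trimmed reads with Trim Galore, aligned them with BWA to mm10 (GRCm38.p6), filtered them with samtools, merged replicates with Picard and called narrow peaks with MACS. The deposited peak list holds 25431 peaks, and the 25357 on the sex chromosomes and autosomes were used. The authors defined enhancers in control cells by accessible chromatin with H3K4me1 and H3K27ac and left out regions at TSSs. Both lists hold positions, with no score and 0 columns of values per sample, so the planned count test of changes over time could not be made, and they give neither depth nor replicate error.

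Every transcript of GENCODE release M21 gave a TSS, with 132629 distinct positions in all. Peak starts were taken to count from 0, since end minus start was never below 200, and enhancer starts from 1, since 199 was the most frequent difference. All coordinates here count from 1. Reported widths of peaks follow from this. Motifs were counted in the genome sequence. RefSeq promoters cover 250 bases before the TSS and 50 from it on, and 5 of the 10 genes matched an entry. Genes were named if they were among the 10, if a TSS of theirs lay in one of the peaks, if they were nearest to a described enhancer, if they were next to Snai1 or Zeb2 in the orders of width or enhancer count (tied and not named for Zeb2), or, in a list of related genes, if they had the widest or narrowest peak or belonged to a side with 6 genes or fewer. Hdac9 and Slc9a8 were also named as genes that a described enhancer overlaps, and Fgfr2 as having a TSS in a peak of Ctbp2. The 10 genes, the lists and the 2 kb limit were chosen with earlier results of these data known. Functions were tested on simulated data against brute-force versions. Alternatives were other TSS sets, windows, flanks and minimum widths. Python 3.11.15, NumPy 2.4.6, pandas 2.3.3, pysam 0.24.0 and Matplotlib 3.10.9 were used. Single named genes and 1 sequence that fall under these rules are not reported here.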

Additional observations from a re-analysis of the deposited data

How the results depend on the processing

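All 10 genes kept a peak with windows of 500 bp or 2 kb, with TSSs of protein-coding transcripts, of RefSeq or of 1 transcript per gene, with peaks of at least 500 bp and with peaks merged within 1 kb, and 9 did when the peak centre had to lie in the window, Snai1 being lost. The median of the widest peaks ranged from 2361 to 3122.5 bp. The number of enhancers followed the rule more closely, with 140 for a flank of 200 kb and 52 for enhancers of at least 300 bp, in place of 85. Of 255 alternative values, 232 stayed within 1.5 times the value given, the limit used here since no replicate spread exists, and the 23 others were 2 counts over the 10 genes, both given above, and 21 values of single genes or lists. Among these, Zeb2 had 1400 bp with 1 TSS per gene, Vim 4538 bp with merged peaks, Snai3 0 enhancers with a flank of 50 kb and Snai2 4 with 200 kb. No paired analysis was possible because neither list has a value for any single sample. The count test over time was not run for the same reason. Depth limits which narrow peaks could be found, and the lists do not give it.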

Other observations

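Within 100 kb of the 10 genes lay 27 further peaks of H3K4me3 that were not within 1 kb of their own TSSs. Of these, 13 were near no annotated TSS at all, and they lay at Twist1 (4), Vim (3), Snai2 (2), Twist2 (2) and Zeb1 (2). Their widths ran from 200 bp, at a peak 73866 bp into Zeb1, to 701 bp at Vim. In the 100 kb around Cdh2 there was no further peak, and the 6 around Snai3 were all near TSSs of other genes, the widest, of 3503 bp, near Piezo1.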
